A study of Rattus norvegicus with 6 samples.

Results

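The 6 long noncoding RNAs (lncRNAs) described here are NONRATT010357.2, NONRATT001611.2, NONRATT028292.2, NONRATT021337.2, NONRATT009569.2 and NONRATT015294.2, out of 18649 lncRNAs listed in INS-1 cells, a rat insulinoma line that stands in for the pancreatic beta cell. The first 5 named are the lncRNAs of a qRT-PCR panel that were raised by high glucose and palmitate (HG/PA), and NONRATT015294.2 was a further upregulated candidate. All 6 were chosen by their rise in the same RNA-Seq samples that are used here, so their levels and fold changes are a description and no p value is given for them. The RNA-Seq samples were 3 control samples (Con) kept in regular growth medium and 3 samples given 25 mM glucose together with 0.5 mM palmitate for 24 h, described by the study as biological triplicates. Glucose and palmitate were changed together, so their separate effects cannot be told apart. Whether the Con medium held the palmitate carrier is not given in the sources used here. All samples come from a single tumour-derived cell line, and protein-coding genes, beta cell markers among them, were not analysed here.

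LncRNAs are transcripts that are not translated into protein, and many are present at low levels and in few cell types. Some act in the nucleus on chromatin or on the transcription of genes beside them, while others act in the cytoplasm by binding proteins or microRNAs. A lncRNA that acts on nearby genes is often transcribed within the same stretch of chromatin as its targets, and for that reason the other lncRNAs around each of the 6 are described as well. In beta cells, prolonged exposure to high glucose and saturated fatty acids such as palmitate is known to impair insulin secretion and to cause cell death, a state called glucolipotoxicity.

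Levels are given as FPKM, the fragments on a transcript relative to its length and to the depth of the sample, so that transcripts of different length can be compared. The fragments behind each value could be recovered, since each FPKM value multiplied by its transcript length was a whole number of equal steps. The steps give depths between 12491547 and 13770879 fragments per sample, of which 8.76% to 9.67% lay on listed lncRNAs. As the samples are bulk RNA, more cells that express a lncRNA and more of it per cell cannot be told apart. Intervals and floors below cover counting error only.

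The 6 lncRNAs lie on 6 chromosomes of Rnor_6.0. Of these, 4 are unspliced, with a transcript as long as its genomic span: NONRATT010357.2 (chromosome 15, 27230306 to 27231061, 756 nt), NONRATT001611.2 (chromosome 1, 240931494 to 240931760, 267 nt), NONRATT021337.2 (chromosome 4, 64865710 to 64868509, 2800 nt) and NONRATT015294.2 (chromosome 2, 144866512 to 144867527, 1016 nt). The other two are spliced. NONRATT028292.2 (chromosome 8, 18882544 to 18903815) has 647 nt of transcript in a span of 21272 nt, and NONRATT009569.2 (chromosome 14, 91434841 to 91439174) has 679 nt in 4334 nt. Of all listed lncRNAs, 45.9% are unspliced and the median length is 663 nt. The libraries were strand-specific, but the strand of each transcript and the protein-coding genes around it were not used here.

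NONRATT021337.2 was the most deeply covered of the 6 and rose by the largest amount of FPKM. Its level was 8.07, 6.72 and 7.18 FPKM in Con 1, 2 and 3, from 311, 235 and 252 fragments, and 29.9, 31.3 and 32.2 FPKM in HG/PA 1, 2 and 3, from 1060, 1201 and 1188 fragments. The groups were far apart, and the replicates of each lay close together. The mean went from 7.32 ± 0.68 to 31.1 ± 1.14 FPKM (SD, n = 3 each), a ratio of 4.25, and the summed fragments gave a ratio of 4.24 (95% exact interval 3.93 to 4.59). The lowest HG/PA sample was 3.71 times the highest Con sample.

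NONRATT009569.2 had the highest level of the 6 in the Con cells and the smallest fold change. It was at 12.4, 9.90 and 13.0 FPKM in Con 1, 2 and 3 (116, 84 and 111 fragments), and at 32.2, 29.2 and 29.7 FPKM in HG/PA 1, 2 and 3 (277, 271 and 266 fragments). Con 2 was the lowest Con sample, and the HG/PA samples were all above the Con samples. The mean rose 2.58-fold, from 11.8 ± 1.66 to 30.4 ± 1.64 FPKM (SD, n = 3 each). The interval of the fragment ratio was 2.25 to 2.94. It was the closest of the 6 to the least fold change that the study accepted for its calls.

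NONRATT001611.2 is the shortest of the 6, so a given FPKM stands for fewer fragments than in the others, and its Con values rest on few. It was at 4.35, 5.40 and 4.48 FPKM in Con 1, 2 and 3 (16, 18 and 15 fragments), and at 22.5, 24.6 and 28.4 FPKM in HG/PA 1, 2 and 3 (76, 90 and 100 fragments). The samples of the Con group differed little, and HG/PA 3 was the highest sample. The means were 4.74 ± 0.57 and 25.2 ± 2.99 FPKM (SD, n = 3 each), with a ratio of 5.31 and an interval of the fragment ratio from 3.92 to 7.38.

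NONRATT028292.2, the lncRNA with the longest span, was the most even of the 6 among HG/PA replicates, but not among Con replicates. Its level was 1.80, 2.23 and 1.60 FPKM in Con 1, 2 and 3 (16, 18 and 13 fragments) against 9.04, 9.26 and 9.14 FPKM in HG/PA 1, 2 and 3 (74, 82 and 78 fragments). The HG/PA samples were nearly the same. The mean went from 1.88 ± 0.32 to 9.15 ± 0.11 FPKM (SD, n = 3 each), a ratio of 4.88, with an interval of the fragment ratio from 3.56 to 6.83.

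NONRATT010357.2 was close to the limit of detection in 1 Con sample. The Con samples held 11, 10 and 2 fragments, or 1.06, 1.06 and 0.211 FPKM, and the value of Con 3 lies below the 0.317 FPKM that 3 fragments give in that sample. The HG/PA samples held 51, 93 and 59 fragments, or 5.33, 8.99 and 5.92 FPKM. HG/PA 2 stood above the other HG/PA samples, and all of these were well above the Con samples. The means were 0.776 ± 0.489 and 6.74 ± 1.96 FPKM (SD, n = 3 each), with a ratio of 8.70 and an interval of the fragment ratio from 5.61 to 14.0. The size of the ratio depended on Con 3, without which the log2 fold change, on the log2(FPKM + 0.1) scale, was 2.53 in place of 3.16.

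NONRATT015294.2 had the lowest level, the largest fold change and, relative to its mean, the widest spread. No fragment was found in Con 1 or Con 3, which allows up to 0.214 and 0.236 FPKM, while Con 2 held 7 fragments (0.552 FPKM). The HG/PA samples held 32, 52 and 14 fragments, or 2.49, 3.74 and 1.04 FPKM. The groups did not overlap, but HG/PA 3 was only 1.89 times Con 2. The means were 0.184 ± 0.319 and 2.42 ± 1.35 FPKM (SD, n = 3 each). Their ratio of 13.2 rests on 7 Con fragments, all from Con 2, and the interval of the fragment ratio was 6.42 to 35.1. Without Con 2, the observed HG/PA mean was 10.3 times the floor that 3 fragments give in Con 3. That value leaves out the spread of the HG/PA samples, the lowest of which was at 1.04 FPKM.

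**Figure D1:**
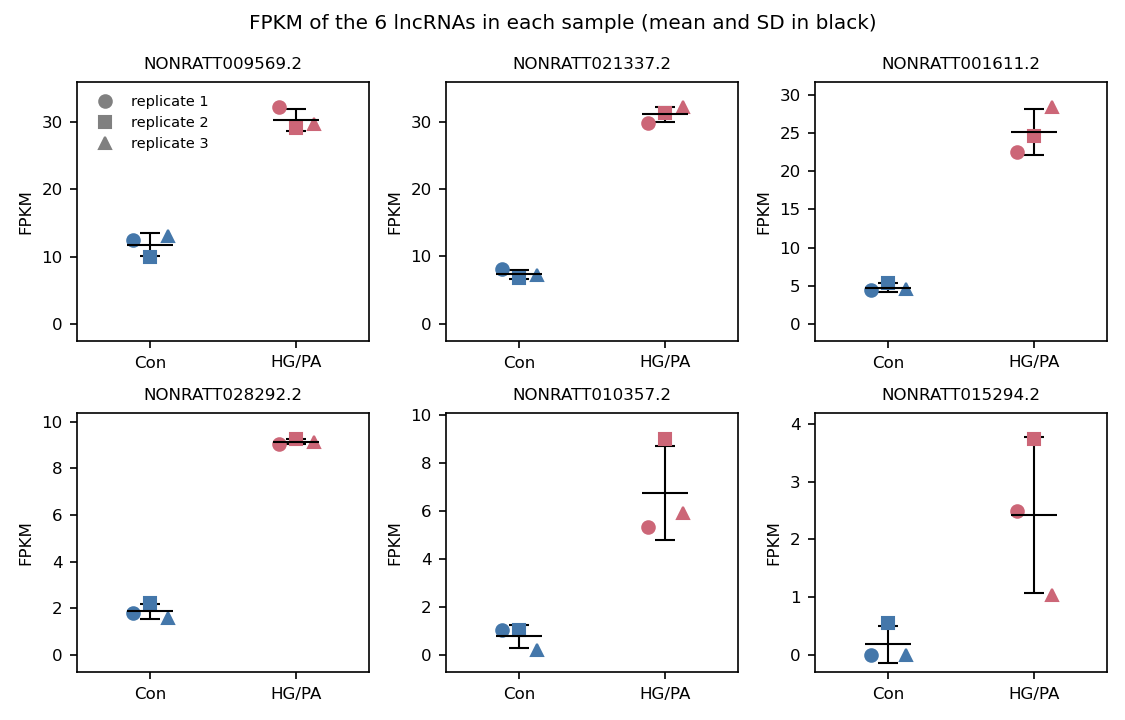
FPKM (linear axis, 1 scale per panel) of the 6 lncRNAs in Con and HG/PA samples, with a symbol per replicate number and the mean and SD of 3 samples in black. In each panel the HG/PA samples lie above the Con samples, tightly for NONRATT028292.2 (9.04 to 9.26 FPKM in HG/PA) and loosely for NONRATT015294.2 (1.04 to 3.74 FPKM).

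In 6 of 6 lncRNAs every HG/PA sample was above every Con sample, which was true of 7.44% of the 17558 lncRNAs tested. This separation is part of how the 6 were chosen. The lncRNAs tested were those with at least 0.1 FPKM in 3 of the 6 samples, and all 6 passed this filter. Measured as log2(FPKM + 0.1), a scale on which changes of low lncRNAs come out too small, the log2 fold changes were 3.59 (NONRATT015294.2, standard error 0.85), 3.16 (NONRATT010357.2, 0.55), 2.38 (NONRATT001611.2, 0.14), 2.24 (NONRATT028292.2, 0.17), 2.08 (NONRATT021337.2, 0.10) and 1.37 (NONRATT009569.2, 0.12). All tested lncRNAs had a median of -0.11, and relative to it the rises were from 1.48 to 3.70. Ranked by the size of the rise among all tested lncRNAs, the 6 stood between place 23 (NONRATT015294.2) and place 408 (NONRATT009569.2). The fold of NONRATT015294.2 depended on the pseudocount, with a log2 fold change of 5.81 at a pseudocount of 0.01 and 1.48 at a pseudocount of 1.

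**Figure D2:**
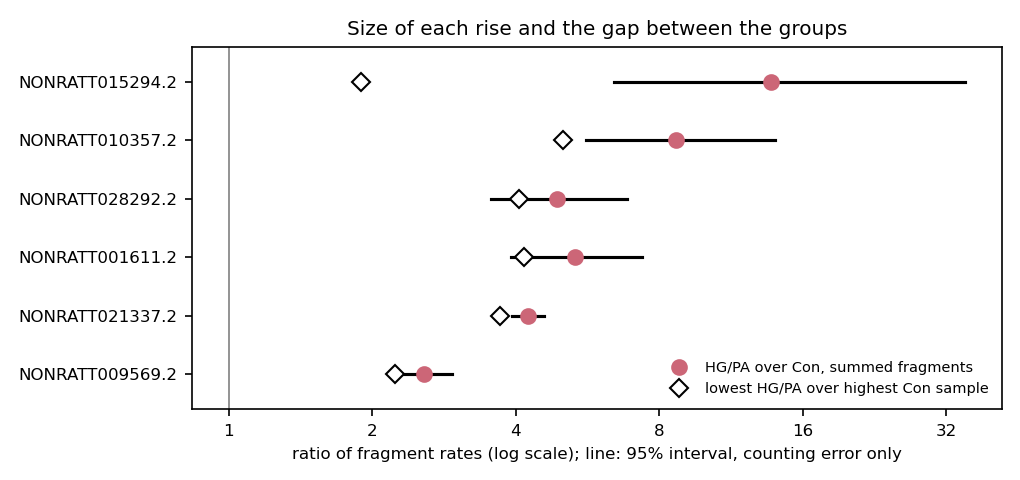
Ratio of HG/PA to Con fragments, each relative to depth (filled circles, with the 95% exact interval as a line), and ratio of the lowest HG/PA to the highest Con sample (open diamonds), on a log axis. The interval is narrow for NONRATT021337.2 (3.93 to 4.59) and wide for NONRATT015294.2 (6.42 to 35.1), whose open diamond is the smallest at 1.89.

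Fold changes and levels ordered the 6 lncRNAs differently. In the Con samples the order of the mean level was NONRATT009569.2, NONRATT021337.2, NONRATT001611.2, NONRATT028292.2, NONRATT010357.2 and NONRATT015294.2. The sample ranges overlapped in the last pair of this order, NONRATT010357.2 and NONRATT015294.2, and in no other neighbouring pair. In the HG/PA samples NONRATT021337.2 and NONRATT009569.2 shared the top with overlapping ranges, and the others followed in the Con order with no overlap between neighbours, although the highest sample of NONRATT010357.2 (8.99 FPKM) came close to the lowest of NONRATT028292.2 (9.04 FPKM). The fold changes ran the other way, from the lowest Con level to the highest, except that NONRATT001611.2 and NONRATT028292.2 changed places. Most neighbouring places in this order were not resolved, since the interval of each fragment ratio overlapped that of the next. The exception was NONRATT009569.2, whose interval (2.25 to 2.94) lay below all others. Between places farther apart, the interval of NONRATT021337.2 (3.93 to 4.59) lay below those of NONRATT010357.2 (5.61 to 14.0) and NONRATT015294.2 (6.42 to 35.1). As these intervals cover counting error only, they do not settle the order between replicates. The Con level is also the denominator of the fold change, and the 6 were chosen by fold change, so such an order is partly built in. In FPKM the mean gained 23.8 for NONRATT021337.2, 20.4 for NONRATT001611.2 and 18.6 for NONRATT009569.2, against 7.27 for NONRATT028292.2, 5.97 for NONRATT010357.2 and 2.24 for NONRATT015294.2.

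The same levels can be set against all listed lncRNAs. In the Con samples NONRATT015294.2 exceeded 12.3% of them and NONRATT009569.2 exceeded 92.8%, so the 6 ran from rare to abundant lncRNAs. In the HG/PA samples they exceeded between 65.4% (NONRATT015294.2) and 98.2% (NONRATT021337.2). NONRATT010357.2 went from above 34.4% of the lncRNAs to above 87.1%.

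The scatter among replicates, which entered the choice of the 6 through the p threshold of the study, differed among them. It is given as the variance of the fragments relative to counting noise, where 1 is what counting alone gives. NONRATT001611.2 (0.234 in Con, 1.23 in HG/PA), NONRATT028292.2 (0.442 and 0.012), NONRATT009569.2 (2.00 and 0.781) and NONRATT021337.2 (2.36 and 1.52) were between 0.012 and 2.36. NONRATT010357.2 was at 2.93 in Con and 5.74 in HG/PA, and NONRATT015294.2 at 7.37 and 10.2. The median of the 10035 tested lncRNAs with 10 or more fragments on average was 1.26 in Con and 1.21 in HG/PA. Each of these values comes from 3 samples and is imprecise.

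Most of the 6 lncRNAs stood alone. NONRATT010357.2, NONRATT028292.2, NONRATT021337.2 and NONRATT009569.2 had no listed lncRNA within 100 kb of either end, which was true of 8.7% of all listed lncRNAs, of 18.3% of the 115 upregulated and of 11.0% of the 146 downregulated lncRNAs (adjusted p below 0.05 in limma with at least a 2-fold change). The 6 were not left out of the lncRNAs behind these shares. Listed lncRNAs had a median of 4 others within 100 kb, and 30.4% overlapped another, which none of the 6 did. Every listed lncRNA had a fragment in at least 1 sample, so silent lncRNAs may exist around the 6 that are not listed. The nearest listed lncRNAs were 204486 nt away for NONRATT021337.2 (ENSRNOT00000086493), 467959 nt for NONRATT010357.2 (NONRATT010818.2), 484563 nt for NONRATT009569.2 (NONRATT010140.2) and 971240 nt for NONRATT028292.2 (NONRATT027465.2). None of these passed the test. ENSRNOT00000086493 held 6, 7 and 4 Con fragments against 6, 2 and 4 HG/PA fragments, and NONRATT010140.2 held 3, 3 and 5 against 5, 5 and 2. NONRATT010818.2 held 11, 7 and 13 fragments against 10, 8 and 9. NONRATT027465.2, with 55, 74 and 57 against 65, 66 and 59, was the best covered of these, and its groups overlapped. Their log2 fold changes were between -0.50 and 0.03, with adjusted p from 0.62 to 0.99 in limma.

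The other two lncRNAs had 6 listed neighbours within 100 kb, which played no part in the choice and could be tested. With limma over all 17558 lncRNAs, none of the 6 neighbours was upregulated (background 0.655%) or downregulated (background 0.832%) at an adjusted p below 0.05 with at least a 2-fold change. At the same fold change and an unadjusted p below 0.05, also none was upregulated (background 2.59%) or downregulated (background 3.90%), and limma-voom on the recovered fragments gave the same counts of 0. No neighbour within 100 kb had an unadjusted p below 0.05 at any fold change, and their median log2 fold change was -0.04, beside -0.11 for all tested lncRNAs. With so few neighbours, a count of 0 is also what the background gives.

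NONRATT001611.2 lies in a row of unspliced lncRNAs on chromosome 1 that were measured in the same samples. NONRATT001612.2 begins 847 nt from its end and went from 400, 367 and 392 fragments under Con to 320, 342 and 408 under HG/PA (limma log2 fold change -0.15 ± 0.12 SE, adjusted p = 0.58). NONRATT001610.2, on the other side at 11282 nt, held 433, 412 and 386 against 463, 443 and 407 fragments (limma log2 fold change 0.06 ± 0.09 SE, adjusted p = 0.75). Both were well covered and their groups overlapped, while the lncRNA between them had a log2 fold change of 2.38. NONRATT003653.2 at 60677 nt went from 277, 230 and 266 to 283, 302 and 322 fragments (limma log2 fold change 0.20, adjusted p = 0.34). Its groups did not overlap, but the lowest HG/PA sample was only 1.04 times the highest Con sample in FPKM. NONRATT003651.2 at 33005 nt held at most 7 fragments in any sample (limma log2 fold change -0.78, adjusted p = 0.45). Of the fragments on NONRATT001611.2 and NONRATT001612.2 together, NONRATT001611.2 took 3.85%, 4.68% and 3.69% in Con 1, 2 and 3 and 19.2%, 20.8% and 19.7% in HG/PA 1, 2 and 3. This share was nearly constant within each group. Farther off, in the window of 200 kb that was tried as an alternative, 2 lncRNAs had an unadjusted p below 0.05, and they are named for their values. NONRATT001608.2 at 170896 nt went from 151, 141 and 180 to 84, 82 and 103 fragments (limma log2 fold change -0.82 ± 0.17 SE, adjusted p = 0.062). NONRATT001609.2 at 168936 nt went from 58, 31 and 34 to 24, 20 and 28 fragments (limma log2 fold change -0.72 ± 0.27 SE, adjusted p = 0.24). Neither passed at the adjusted p or reached a 2-fold change.

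NONRATT015294.2 showed a different picture beside its nearest neighbour. NONRATT015295.2, an unspliced lncRNA of 1750 nt, begins 351 nt from its end. It went from 44, 30 and 41 fragments under Con to 12, 7 and 43 under HG/PA, in replicate order. HG/PA 1 and 2 were below every Con sample, while HG/PA 3 was within the Con range. In limma its log2 fold change was -1.17 ± 0.59 SE (adjusted p = 0.37). Without HG/PA 3 it was -1.82 (adjusted p = 0.11), and without HG/PA 2 it was -0.66. None of these fits passed at the adjusted p, and the fit without HG/PA 3 passed at the unadjusted p (0.0030) with at least a 2-fold change.

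Set side by side, the values of these lncRNAs ran opposite to each other within each group. In HG/PA 2, where NONRATT015294.2 was highest with 52 fragments, NONRATT015295.2 was lowest with 7. In HG/PA 3, where NONRATT015294.2 was lowest of its group with 14, NONRATT015295.2 was at 43. In the Con group, the sole sample with NONRATT015294.2 fragments, Con 2, had the fewest of NONRATT015295.2. The share of NONRATT015294.2 in the fragments of both was 0% in Con 1 and Con 3 (95% exact interval up to 8.04% and 8.60%) and 18.9% in Con 2 (7.96% to 35.2%). It was 72.7% in HG/PA 1 (57.2% to 85.0%), 88.1% in HG/PA 2 (77.1% to 95.1%) and 24.6% in HG/PA 3 (14.1% to 37.8%). HG/PA 3 was thus nearer to Con 2 than to the other HG/PA samples, and their intervals overlapped.

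The sum of both lncRNAs moved far less than NONRATT015294.2 alone. The sum was 44, 37 and 41 fragments under Con and 44, 59 and 57 under HG/PA. Per 1000000 fragments of depth this was 3.14 ± 0.16 in Con and 4.04 ± 0.49 in HG/PA (SD, n = 3 each), a ratio of 1.28, where NONRATT015294.2 alone had a fragment ratio of 13.7. Of the Con fragments of both, 115 lay on NONRATT015295.2 and 7 on NONRATT015294.2. The sum would thus have the far smaller ratio even with an unchanged neighbour. For NONRATT001611.2 and NONRATT001612.2, where the neighbour had a log2 fold change of -0.15, the ratio of the sum was 1.08. The part of the neighbour in the rise of NONRATT015294.2 was not tested. Among the 1257 tested pairs of consecutive lncRNAs with ends within 1000 nt and no overlap, 122 had an lncRNA that was at least 2-fold up. In 10 of these the other was at least 2-fold down, NONRATT015294.2 and NONRATT015295.2 among them, and in 5 both were up. These are 0.8% and 0.4% of the 1257 pairs, counted by fold change with no p threshold. Falls were also commoner than rises over all tested lncRNAs (3.90% against 2.59% at an unadjusted p below 0.05 in limma with at least a 2-fold change). No pattern is read from these counts. The other neighbour, NONRATT015297.2 at 66650 nt, went from 57, 117 and 112 to 118, 114 and 249 fragments (limma log2 fold change 0.65 ± 0.43 SE, adjusted p = 0.50), with HG/PA 3 as the highest sample.

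**Figure D3:**
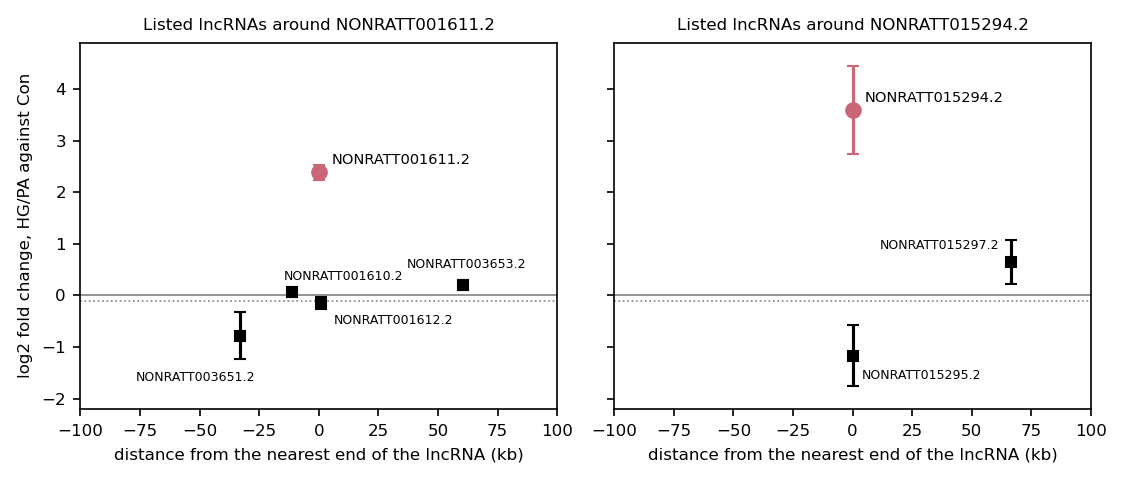
Log2 fold change on the log2(FPKM + 0.1) scale (points, with standard error) of NONRATT001611.2 and NONRATT015294.2 at distance 0 and of their listed neighbours (black squares) within 100 kb, by distance in kb, with the median of all tested lncRNAs (-0.11) as a dotted line. The neighbours lie between -1.17 and 0.65, below the 2.38 and 3.59 of the lncRNAs at distance 0.

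**Figure D4:**
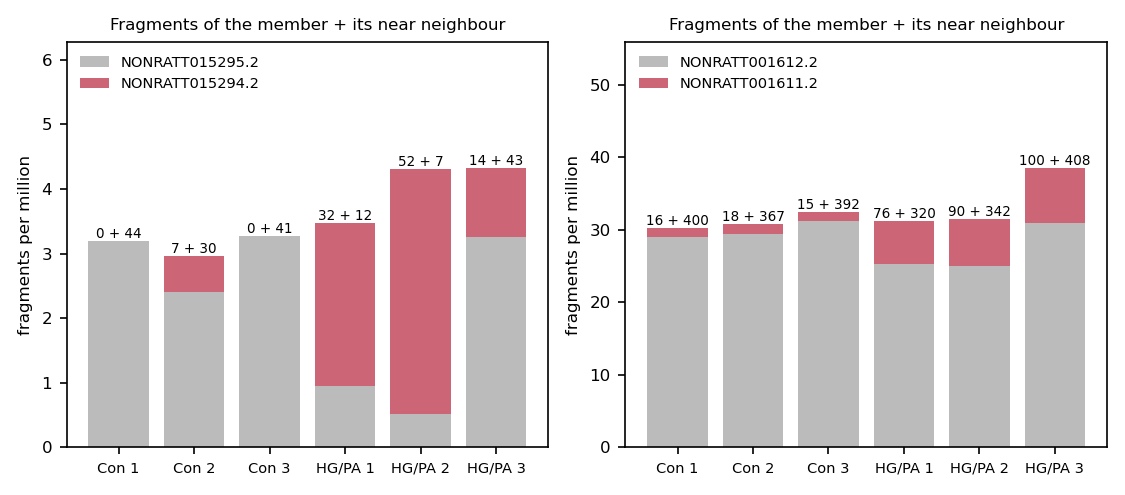
Fragments per 1000000 fragments of depth for NONRATT015294.2 stacked on NONRATT015295.2 (left) and for NONRATT001611.2 stacked on NONRATT001612.2 (right) in each sample, with the fragments of each written above the bar. On the left the red part grows from 0, 7 and 0 to 32, 52 and 14 fragments while the grey part shrinks in HG/PA 1 and 2. On the right the grey part stays between 320 and 408 fragments.

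For each of the 6, the lncRNA with the most similar profile over the 6 samples was sought by Pearson's r of log2(FPKM + 0.1) among 10024 lncRNAs with 10 or more fragments on average and more than 100 kb from all 6. NONRATT022653.2 on chromosome 5 was most like NONRATT021337.2 (r = 0.9985), with 11.9, 9.85 and 11.6 FPKM in Con 1, 2 and 3 and 36.5, 37.9 and 37.3 FPKM in HG/PA 1, 2 and 3. Both had Con 2 as the lowest sample and HG/PA samples that differed little. NONRATT008167.2 was most like NONRATT001611.2, NONRATT004721.2 most like NONRATT028292.2, NONRATT023721.2 most like NONRATT009569.2, NONRATT018154.2 most like NONRATT010357.2 and NONRATT030963.2 most like NONRATT015294.2, with r from 0.991 to 0.999. Such values describe shape and not size, since the log2 fold changes of these 5 were between 0.18 and 1.29, below those of the lncRNAs they resembled. The 6 samples form 2 groups, and between 33 and 166 of the 10024 lncRNAs had an r above 0.95 with a given lncRNA of the 6.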

How the data were processed

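The samples were INS-1 cells in medium with 11.1 mM glucose (Con, n = 3) or with HG/PA (n = 3). The authors filtered the reads with seqtk, aligned them to Rnor_6.0 with HISAT2, quantified known transcripts with StringTie, and deposited FPKM values of lncRNAs for every sample. Counting settings for strand are not given in the sources used here. The study calls the samples biological triplicates, but the labels do not say that they were separate cultures, so p values measure the spread between these samples. Here, fragments were recovered from the step of FPKM times length (100% of values whole within 0.1 step). limma 3.58.1 in R 4.3.3 (lmFit, eBayes with a trend) was run on log2(FPKM + 0.1) over all lncRNAs with at least 0.1 FPKM in 3 samples, with Benjamini-Hochberg adjustment over all of them, after a test on simulated fragments. Ratio and share intervals are exact (Clopper-Pearson, 95%). Other steps used Python 3.11.15, numpy 2.4.6, scipy 1.17.1 and pandas 2.3.3. Members and tests were chosen with earlier results of these data known. Named lncRNAs were the 6, their nearest listed lncRNA, neighbours within 100 kb that overlap them or pass a threshold, and the most similar lncRNA of each. The remaining neighbours within 100 kb, and 2 within 200 kb, were also named, after their values were seen. The gene and promoter tables at hand are of another assembly, so no gene name, coordinate or sequence was taken from them. The qRT-PCR values were not analysed here.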

Additional observations from a re-analysis of the deposited data

How the results depend on the processing

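The members were chosen for their rise and their groups did not overlap, so the direction of a rise could not turn when a sample was left out, and no stability is read from it. Its size moved most for NONRATT015294.2 and NONRATT010357.2. Over the fits without a sample, the log2 fold change was between 2.53 (without Con 3) and 3.48 for NONRATT010357.2, and between 3.14 and 4.49 for NONRATT015294.2, where the top value is the fit without Con 2, with both remaining Con samples at 0. With a pseudocount of 1 the log2 fold change of NONRATT010357.2 was 2.14.

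The counts of called neighbours were 0 under every alternative run (both pseudocounts, both filter choices, both rescalings, no trend, limma-voom, windows of 50 and 200 kb, the latter with a median log2 fold change of -0.44), with 1 exception. Without HG/PA 3, 1 neighbour, NONRATT015295.2, was downregulated at an unadjusted p below 0.05, and the count was otherwise 0 in the fits without a sample. The replicate block also gave 0 neighbours in each direction. Same-numbered samples did not visibly deviate together (correlations of -0.015, -0.042 and -0.052). Whether the samples were paired by number is not given in the sources used here and cannot be settled by these values. The block cut the adjusted calls over all lncRNAs from 261 to 13. No neighbour shared a base with a member, so leaving out overlapping neighbours changed nothing. In the fits without a sample, the log2 fold change of NONRATT001610.2 was between -0.0058 (without HG/PA 1, the sole reversal) and 0.12 (without HG/PA 3), and after the median of ratios it was 0.19. NONRATT003653.2 had an unadjusted p of 0.011 after the median of ratios and 0.021 after quantile normalization, below a 2-fold change. The adjusted p of NONRATT015295.2 was between 0.11 and 0.61 over the alternatives. Few fragments limit NONRATT015294.2 and NONRATT010357.2 most.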
